A study of Mus musculus with 12 samples.

Results

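The miRNAs of the control mouse heart were described from the 3 control hearts (C) hybridised to Agilent miRNA microarrays. A miRNA was kept where the scanner software called it detected on all 3 control arrays, which gave 136 miRNAs of the 1881 on the array, ranked by the mean log2 of their signal. The hearts came from male C57BL6/J mice aged 5 months, 1 mouse per array, and 200 ng of total RNA were labelled per array according to the labels, while the study's methods give a smaller amount. The series holds 12 arrays in 4 groups of 3. Besides C, these were control mice given pargyline, an inhibitor of monoamine oxidase, at 50 mg/kg/day for 12 weeks (C + P), mice made diabetic with streptozotocin, a toxin of pancreatic β-cells, at 50 mg/kg/day (D), and diabetic mice given pargyline (D + P). The labels name no agent for C, and the study's text describes these mice as given vehicle. No contrast between groups was made, and every value below is a description of 3 hearts with no test.

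MiRNAs are short RNAs that guide Argonaute proteins to messenger RNAs, mostly through the seed, the bases near the 5′ end, and thereby lower the output of their targets. Each is cut from a hairpin precursor whose 5′ arm (-5p) or 3′ arm (-3p) can be retained, and neighbouring hairpins are often transcribed together. Heart muscle is known for a small set of striated-muscle miRNAs (miR-1, miR-133, miR-208 and miR-499), while endothelial, smooth muscle, connective tissue and blood cells bring others of their own.

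The sequences of 8 of the 10 brightest miRNAs are shown first because these carried most of the signal. Mature sequences were taken from RefSeq (GRCm38.p6), 5′ to 3′, with the seed (bases 2 to 8) in capitals, and 113 of the 136 miRNAs matched that table.
miR-6366: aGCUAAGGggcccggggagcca
miR-3963: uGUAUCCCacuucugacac
miR-133b-3p: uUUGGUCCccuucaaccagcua
miR-5100: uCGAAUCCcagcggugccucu
miR-22-3p: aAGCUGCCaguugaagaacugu
miR-3968: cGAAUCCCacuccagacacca
miR-126a-3p: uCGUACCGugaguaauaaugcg
miR-451a: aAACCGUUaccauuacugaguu
MiR-6366 lies at chr16:18165093-18165114 on the minus strand and miR-3963 at chr3:151023839-151023857 on the minus strand, neither within the span of a longer annotated gene. MiR-5100, at chr11:60728698-60728718 (plus strand), lies within the span of Mief2, and miR-3968, at chr11:115447969-115447989 (minus strand), within that of Trim80. MiR-133b-3p is at chr1:20682834-20682855 (plus strand) in the long non-coding RNA gene Lincmd1, and miR-126a-3p at chr2:26591402-26591423 (plus strand) within Egfl7, an endothelial gene. MiR-22-3p (chr11:75463772-75463793, plus strand) and miR-451a (chr11:78073186-78073207, plus strand) were in no longer annotated gene. The strand of the surrounding genes was not compared.

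Families of shared seed are shown next because many of their members differ outside the seed by few bases, which bears on how far their probes can be told apart. The let-7 miRNAs, which restrain growth genes in differentiated cells, come first.
let-7c-5p: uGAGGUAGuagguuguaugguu
let-7a-5p: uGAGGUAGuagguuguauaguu
let-7b-5p: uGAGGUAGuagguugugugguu
let-7f-5p: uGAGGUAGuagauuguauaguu
let-7i-5p: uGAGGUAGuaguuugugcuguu
let-7d-5p: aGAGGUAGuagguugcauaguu
let-7g-5p: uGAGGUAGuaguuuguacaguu
The miR-29 miRNAs, known to repress collagen genes, and the miR-30-5p miRNAs follow.
miR-29a-3p: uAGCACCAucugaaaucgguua
miR-29c-3p: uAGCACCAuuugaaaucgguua
miR-29b-3p: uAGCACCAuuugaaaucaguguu
miR-30a-5p: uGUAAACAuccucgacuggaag
miR-30e-5p: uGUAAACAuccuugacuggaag
miR-30c-5p: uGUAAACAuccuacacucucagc
Counted from 1 at the 5′ end, let-7c differs from let-7a by A19G, let-7b by A17G and A19G, let-7f by G12A, let-7g by G12U and U18C, and let-7d by U1A and U16C. Let-7i differs from let-7a by more, with G12U, A17G, U18C and A19U. MiR-29c differs from miR-29a by C10U, and miR-30e-5p from miR-30a-5p by C13U, while miR-30c-5p differs from miR-30a-5p at more bases. Signal from near-identical miRNAs, such as let-7a and let-7c, can be split between their probes in a way these data do not resolve.

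The 3 control arrays called 163, 144 and 146 miRNAs detected, with summed signals of 35028, 27107 and 31713 arbitrary units. Detection on all 3 arrays held for 136 miRNAs, 10 more were detected on 2 arrays, 25 on 1 array and 1710 on none. The other 9 arrays of the series called 165 to 253 miRNAs and had larger sums, from 39661 to 89040 units. All 3 control arrays lay in row 1 of slide 1, a slide they shared with the D arrays. An undetected miRNA is written in the files as 0.1 units, which is a placeholder and not a level. Signals are the scanner's total per miRNA before normalization. A share below is a percentage of the summed signal of all miRNAs detected on an array, and since probes differ in affinity it is a share of signal, not of molecules.

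The signal was concentrated in few miRNAs. MiR-6366 gave 13110, 9501 and 10502 units in control hearts 1, 2 and 3, a share of 35.2% ± 2.16 (SD, n = 3). MiR-3963 gave 6671, 5077 and 6391 units, 19.3% ± 0.747. Together these 2 miRNAs held 54.5% ± 1.72, the 10 brightest held 76.3% ± 1.42, the 20 brightest 84.2% ± 0.789 and the 50 brightest 94.8% ± 0.145. The 136 miRNAs accounted for 99.8% ± 0.107 of the detected signal on the 3 arrays, the rest coming from miRNAs seen on only 1 or 2 arrays.

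Below these came the muscle miRNA miR-133b-3p with 2038, 1676 and 2044 units (6.15% ± 0.315) and miR-133a-3p with 1377, 1131 and 1406 units (4.18% ± 0.252). MiR-5100 followed with 1013, 726 and 874 units (2.78% ± 0.108). These first 5 miRNAs stood in the same order on every array. MiR-1a-3p, the other abundant striated-muscle miRNA, gave 873, 615 and 681 units (2.30% ± 0.175), and miR-22-3p, a miRNA of cardiac and skeletal muscle with roles in hypertrophy, gave 709, 707 and 689 units (2.27% ± 0.304). Their order was not settled, because miR-1a-3p was above miR-22-3p on 1 array of 3. MiR-3968 (659, 391 and 491 units), the endothelial miR-126a-3p (459, 344 and 413 units) and the red-cell miR-451a (372, 365 and 360 units) completed the first 10.

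Ranks 11 to 20 were held by miR-29a-3p, miR-30a-5p, miR-29c-3p, miR-378d, miR-26a-5p, miR-494-3p, let-7c-5p, let-7a-5p, miR-378b and let-7b-5p, with shares from 1.15% to 0.630%. Neighbours in the ranking were called apart where the upper miRNA was brighter on all 3 arrays and the mean log2 difference exceeded its SD. This held for 10 of the 19 neighbouring pairs among the first 20, and for 22 of all 135 pairs, so most neighbours further down differed by less than their spread. The lowest ranks were held by miR-7221-3p (4.23, 4.12 and 4.10 units), miR-7045-5p (3.99, 3.77 and 3.82 units) and miR-327 (2.24, 1.73 and 2.18 units).

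**Figure D1:**
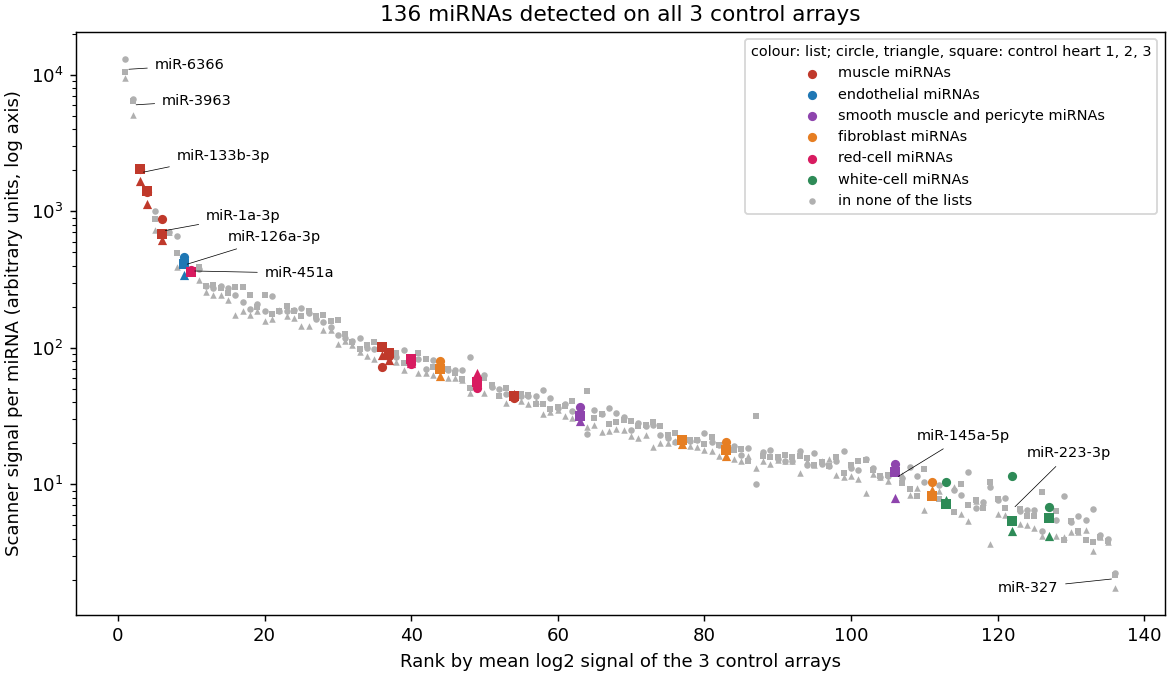
Scanner signal (log axis, arbitrary units) of the 136 miRNAs against their rank, with 1 point per control heart and colours for the cell-type lists. MiR-6366 and miR-3963 stand above all others, the 3 brightest muscle miRNAs lie within the first 6 ranks, and the white-cell miRNAs lie at rank 113 and below.

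Much of the signal came from miRNAs with high catalogue numbers. The 44 miRNAs numbered 1000 or more, which were named late, held 63.0% ± 1.62 of the signal. Most of this came from miR-6366 and miR-3963, which together held 54.5% and had GC contents of 72.7% and 47.4%. The 92 others (let-7 and numbers below 1000) held 36.7% ± 1.72. The array as a whole holds 1062 miRNAs of the higher numbers and 819 of the lower ones. Of the 44, those with a sequence in the table (38) had a median GC content of 66.7% and began with U in 13 cases (34.2%). Among the 92, those with a sequence (75) had a median GC content of 45.5% and began with U in 45 cases (60%), the base preferred by Argonaute. Over the array as a whole the median GC content was 55% for the higher numbers and 47.6% for the lower ones. The shares starting with U were 44.2% and 34.8%.

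MiR-5100 and miR-3968 share the run CGAAUCCCA, and miR-3963 and miR-3968 share AUCCCACU. Each run was found in 2 of the 1608 array miRNAs with a sequence. The seeds of miR-5100 (CGAAUCC) and miR-3968 (GAAUCCC) are thus the same stretch shifted by 1 base. The mature sequence lay on the 3′ side of the hairpin for miR-6366, miR-5100 and miR-3968 and on the 5′ side for miR-3963. Whether any of this signal came from RNAs other than the named miRNAs was not tested.

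Muscle miRNAs led every other cell-type list. Of the 16 muscle miRNAs on the array 6 were detected on all 3 arrays, against 136 of 1881 over the whole array. These 6 held 12.8%, 13.4% and 13.8% of the signal in hearts 1, 2 and 3 (13.3% ± 0.482). As a share of the signal of let-7 and the lower-numbered miRNAs alone they held 36.3% ± 0.635. MiR-133b-3p was 1.47-fold brighter than miR-133a-3p, with ratios of 1.48, 1.48 and 1.45 in the 3 hearts. MiR-133a-3p had no sequence in the table, so it was not compared with miR-133b-3p base by base. How far their probes share signal was not tested, and the ratios of the muscle list below count both. MiR-133a-3p was 1.82-fold brighter than miR-1a-3p, with ratios of 1.58, 1.84 and 2.07.

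The miRNAs encoded within myosin heavy chain genes were far dimmer. MiR-499-5p, from an intron of Myh7b, gave 72.7, 87.9 and 101.5 units (rank 36). MiR-208a-3p, from the gene of the adult ventricular myosin Myh6, gave 42.9, 46.0 and 44.4 units (rank 54). MiR-208b-3p, of the gene for the slow myosin, was detected on no control array, nor were miR-1b, miR-133c and the opposite arms of miR-133b, miR-208a and miR-499. MiR-206, listed among miRNAs of other tissues because it marks skeletal muscle, was detected on none either.

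Endothelial signal came from 1 miRNA. MiR-126a-3p held 1.31%, 1.27% and 1.30% (1.29% ± 0.0223), and the muscle list was 10.3-fold brighter. Without miR-133b-3p the muscle list was 5.55-fold brighter than miR-126a-3p, with ratios of 5.34, 5.70 and 5.63. Of the other 7 endothelial miRNAs on the array miR-221-3p was detected on 1 control array, at 3.67 units, and the rest, miR-222-3p among them, on none. Endothelial cells are numerous in the heart, and in whole tissue the number of cells of a type and the RNA per cell cannot be told apart.

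The vessel-wall miRNAs were dim. MiR-143-3p, of smooth muscle and pericytes, gave 37.1, 28.9 and 31.9 units, and miR-145a-5p, from the same precursor transcript, gave 14.01, 7.89 and 12.2 units. The smooth muscle and pericyte list held 0.140% ± 0.00517, and the muscle list was 95.2-fold brighter. MiR-126a-3p was 12.4-fold brighter than miR-143-3p.

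The fibroblast list held 0.378% ± 0.0130 with 4 of 7 miRNAs detected on all 3 arrays, against 136 of 1881 over the whole array. MiR-21a-5p, which is induced in injured and fibrotic hearts, gave 79.4, 61.7 and 69.4 units. MiR-199a-3p gave 20.8, 19.7 and 21.1 units, and miR-199b-5p gave 20.6, 16.02 and 17.8 units. Both arms of miR-214, which shares a transcript with miR-199a, were detected on no control array.

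Blood miRNAs were mostly those of red cells. MiR-451a, whose hairpin is cut by Argonaute 2 and not by Dicer, held 1.06%, 1.35% and 1.14% of the signal. With miR-486a-5p (76.7, 77.6 and 83.2 units) and miR-144-3p (50.5, 65.4 and 56.0 units) the red-cell list held 1.62% ± 0.230, slightly above the endothelial list on every array. The muscle list was 8.26-fold brighter than the red-cell list. MiR-486a-5p is also made in muscle.

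White-cell miRNAs were close to the lower end of detection, with a summed share of 0.0668% ± 0.0134. MiR-142a-3p, a marker of all blood lineages, gave 10.5, 7.66 and 7.23 units. The myeloid miR-223-3p gave 11.5, 4.54 and 5.41 units, and miR-146a-5p gave 6.85, 4.205 and 5.67 units. The lymphocyte miR-150-5p was detected on 2 control arrays at 3.87 and 4.54 units, and miR-155-5p on none. All 3 detected white-cell miRNAs were brightest in heart 1, and the red-cell list was 17.3-, 30.98- and 27.3-fold brighter than the white-cell list in hearts 1, 2 and 3. In the authors' normalized table the white-cell share was 0.139%.

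The tissue label was checked against marker miRNAs. The muscle markers miR-1a-3p and miR-133a-3p ranked 6 and 4, the endothelial marker miR-126a-3p ranked 9 and the smooth muscle marker miR-145a-5p ranked 106. The extraction text of the labels names macrophages as the RNA source whereas the tissue label is heart muscle, and the muscle list was 202-fold brighter than the white-cell list (156-, 221.6- and 239-fold in the 3 hearts). In the authors' normalized table it was 109-fold brighter (163-, 65.0- and 124-fold). All 19 listed miRNAs of other tissues, among them miR-122 (liver), miR-124 and miR-9 (brain), miR-375 (islets) and the miR-200 family (epithelia), were detected on no control array, as were 90.9% of all miRNAs on the array.

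**Figure D2:**
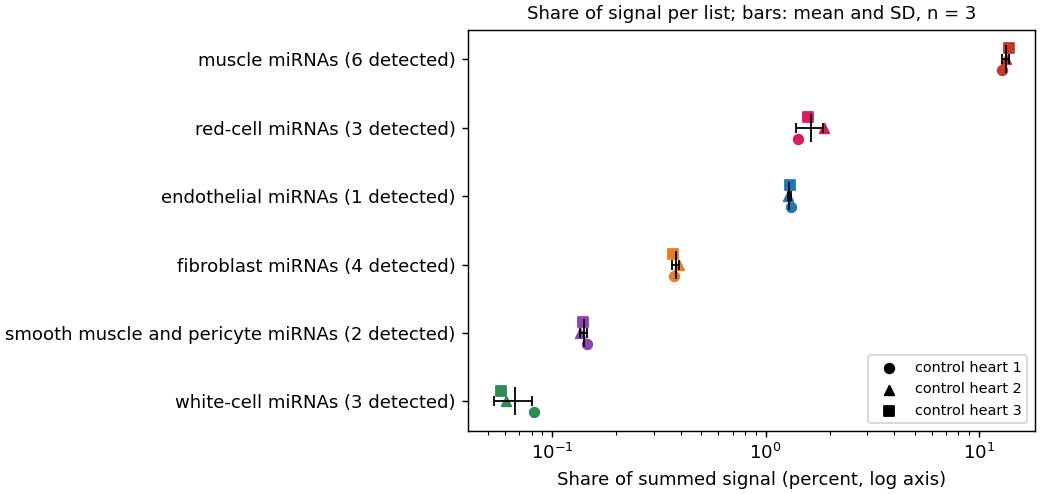
Share of the summed signal (percent, log axis) per cell-type list, with 1 point per control heart and a bar for the mean and SD of the 3 hearts. The muscle list lies at 13.3%, the red-cell list at 1.62% and the endothelial list at 1.29%, and the white-cell list lies lowest at 0.0668%.

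Families were formed from shared seeds. The 113 miRNAs with a sequence had 88 different seeds, of which 14 were shared by 39 miRNAs. Of the seeds with 2 or more members let-7 held the most signal, with 2.91%, 3.30% and 3.91% in hearts 1, 2 and 3 (3.38% ± 0.503). Within it let-7c-5p (217, 186 and 278 units) was brightest on every array. Let-7a-5p (192.5, 174 and 242 units) was above let-7b-5p (187, 158 and 245 units) in hearts 1 and 2 only, so their order was not settled. Let-7g-5p (70.1, 65.6 and 82.3 units) was dimmest by mean log2 signal. As shares of the signal of their array, all 7 let-7 miRNAs were lowest in heart 1, and 6 of the 7 were highest in heart 3. Let-7e-5p, which was not among the 136, was detected on 2 control arrays at 4.86 and 8.93 units.

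The miR-29 family held 2.62% ± 0.198. MiR-29a-3p (378, 313 and 391 units) was brighter than miR-29c-3p (273, 243 and 288 units) and miR-29b-3p (186, 188 and 185 units) on every array. The miR-30 family, known for roles in cardiac matrix and autophagy control, held 1.79% ± 0.106 for the 3 members with a sequence. With miR-30b-5p and miR-30d-5p joined by name it held 2.37%. MiR-30a-5p (284, 255 and 284 units) was its brightest member.

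The miR-26 family held 0.915% ± 0.0246, almost all of it from miR-26a-5p (272, 223 and 254 units) and little from miR-26b-5p (38.8, 31.5 and 37.5 units). The 6 members of the miR-15/16 family held 0.639% ± 0.0355. They ran from miR-16-5p (68.7, 57.7 and 59.1 units) to miR-15b-5p (12.3, 5.41 and 7.02 units). As shares, 4 of the 6 were highest in heart 2 and 2 in heart 1. When 5 miRNAs without a sequence were joined by number and arm, miR-133a-3p with miR-133b-3p formed the leading family, with 10.3% of the signal.

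**Figure D3:**
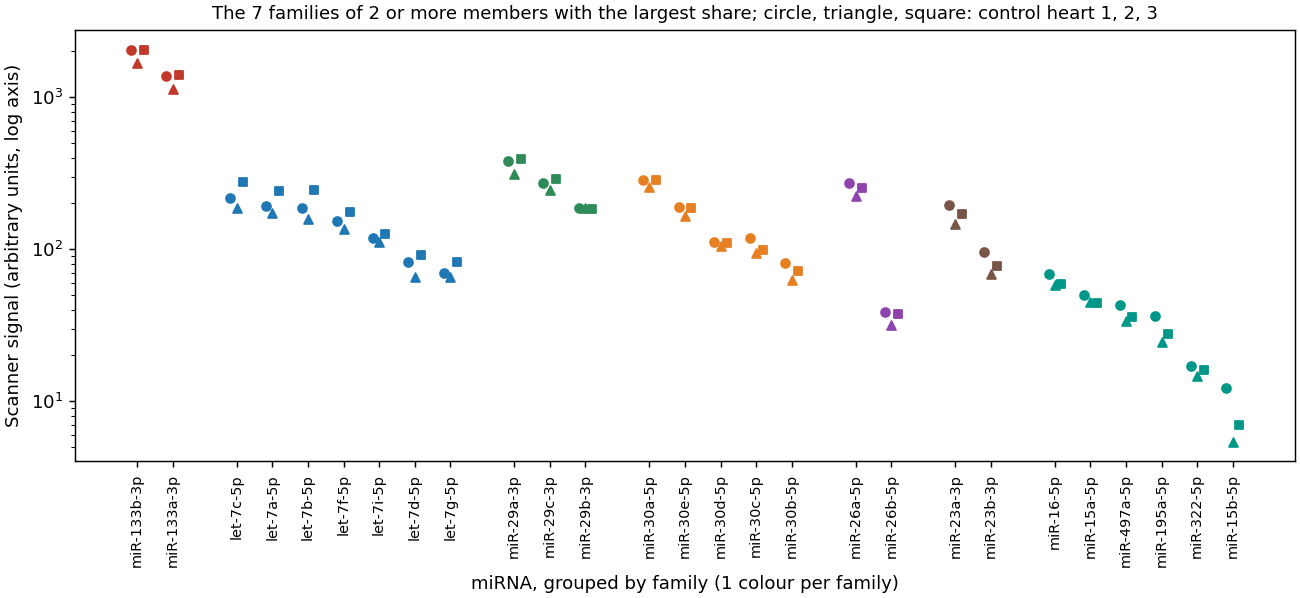
Scanner signal (log axis, arbitrary units) of each member of the 7 families with the largest share, with 1 colour per family and 1 point per control heart. MiR-26a-5p (223 to 272) and miR-26b-5p (31.5 to 38.8) lie apart, while neighbours such as let-7a-5p (174 to 242) and let-7b-5p (158 to 245) overlap.

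Hairpins within 10 kb of each other on the same strand were treated as a genomic cluster. This gave 15 clusters with 30 of the miRNAs. With every miRNA counted in full at each of its loci, the leading clusters were miR-29a with miR-29b-1 (1.76% ± 0.128) and miR-29c with miR-29b-2 (1.46% ± 0.141). Next came let-7a-1 with let-7f-1 and let-7d (1.40% ± 0.192), miR-451a with miR-144 (1.37% ± 0.198) and let-7b with let-7c-2 (1.36% ± 0.259). MiR-29b-3p, let-7f-5p and let-7c-5p are encoded at more than 1 locus in the sequence table, as is let-7a-5p by the gene positions. Counting only the miRNAs of a single cluster in the sequence table, miR-451a with miR-144 led with 1.37%, against 1.15% for the miR-29a cluster.

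Members of some clusters differed in signal although they come from neighbouring hairpins, while members of others were close. The mean log2 signals of let-7c-5p and let-7b-5p lay 0.21 apart, and miR-497a-5p was 1.28-fold brighter than miR-195a-5p. MiR-451a was 6.42-fold brighter than miR-144-3p, with ratios of 7.35, 5.59 and 6.43. MiR-23a-3p (195, 145 and 170 units) was 2.86-fold brighter than miR-27a-3p (86.1, 46.9 and 51.0 units). MiR-23a-3p was 2.11-fold brighter than miR-23b-3p of the paralogous cluster with ratios of 2.03, 2.11 and 2.18. The order of miR-27a-3p and miR-27b-3p was not settled, with ratios of 1.24, 0.778 and 0.785.

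Gene positions without strand placed more miRNAs, 135 of the 136, and gave 21 clusters. In these the miR-1a and miR-133a hairpins led, with a share of 6.76% ± 0.1004. That transcript pair exists at more than 1 locus, with the same mature miRNAs from each, so the array cannot assign the signal to a locus. MiR-143-3p was 2.93-fold brighter than its neighbour miR-145a-5p, with ratios of 2.64, 3.66 and 2.61.

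Arms were paired where their names differed only in -5p and -3p, and both arms were on the array in this way for 723 hairpins. At least 1 arm was among the 136 miRNAs for 86 of these. Only the 5p arm was detected on all 3 arrays for 53, only the 3p arm for 27 and both arms for 6. For 77 of the hairpins with only 1 such arm the opposite arm was detected on no control array. Of all miRNAs on the array 90.9% were detected on none, so an undetected opposite arm was the usual case. Among hairpins numbered 1000 or more the counts were 21 for 5p, 2 for 3p and 0 for both, against 32, 25 and 6 for let-7 and the lower numbers. A further 15 miRNAs, miR-1a-3p among them, are named for an arm whose opposite arm is not on the array under the same name. They are left out of these counts, as are 29 miRNAs with no arm in their name, 5 of them among the 10 brightest.

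The dimmer arms of miR-30a and miR-22 are shown, to be set beside their brighter arms above, since among the 6 hairpins with both arms detected these had the largest excess of either arm.
miR-30a-3p: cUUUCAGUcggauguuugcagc
miR-22-5p: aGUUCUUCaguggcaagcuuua
For miR-30a the 5p arm gave 284, 255 and 284 units and the 3p arm 14.8, 14.9 and 16.5 units, a log2 ratio of 5p over 3p of 4.15 ± 0.09 (17.8-fold). For miR-30e it was 3.50 ± 0.09 (11.3-fold), also to the 5p arm. For miR-22 the 5p arm gave 5.82, 4.46 and 4.55 units against 709, 707 and 689 units of the 3p arm, a log2 ratio of -7.16 ± 0.20 (143-fold to the 3p arm). MiR-133a (-3.91 ± 0.10, 15.1-fold) and miR-378a (-3.34 ± 0.08, 10.1-fold) also favoured the 3p arm. MiR-199a was the most balanced, at -1.16 ± 0.18 (2.23-fold), with 20.8, 19.7 and 21.1 units for the 3p arm and 10.3, 9.07 and 8.25 units for the 5p arm. In all 6 hairpins the brighter arm was the same in the 3 hearts.

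Where the opposite arm was detected on no control array no ratio was formed. Among arms matched by name, the brightest such arms were miR-133b-3p, miR-126a-3p and miR-29a-3p among 3p arms. Let-7b-5p (187, 158 and 245 units) led among 5p arms. MiR-1a-3p (873, 615 and 681 units) was brighter than miR-126a-3p. Its opposite arms, miR-1a-1-5p and miR-1a-2-5p, were also detected on no control array but carry a locus number and were not matched. The muscle miR-499-5p was also of this kind. MiR-126a-5p, undetected in the 3 control hearts, was detected on all 9 other arrays of the series. Those arrays all had larger summed signals than the control arrays, and how far this bears on its detection was not tested.

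**Figure D4:**
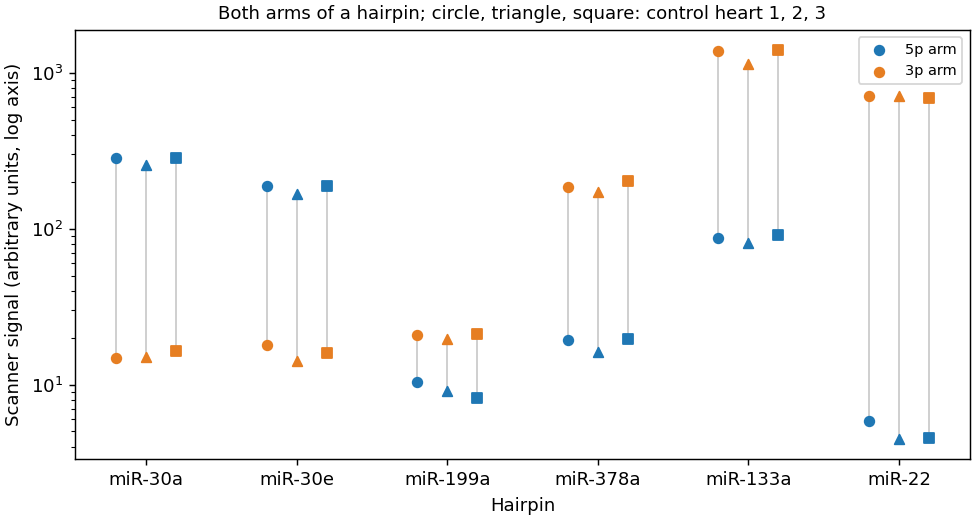
Scanner signal (log axis, arbitrary units) of the 5p and 3p arm of the 6 hairpins with both arms detected, with 1 pair of points per control heart joined by a line. The 5p arm is brighter in miR-30a and miR-30e and the 3p arm in the other 4, with the widest gap in miR-22 (143-fold).

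The 3 control hearts gave closely similar profiles. Over the 136 miRNAs the log2 signals of the array pairs had Pearson's r from 0.989 to 0.992 and Spearman's rho from 0.984 to 0.989, as a description across miRNAs that share an array. No value was identical between arrays. After each array was centred on its median, the SD of the log2 signal over the 3 hearts had a median of 0.13 over the miRNAs and ranged from 0.0078 to 0.84. It was 0.11 in the brightest 45 and 0.20 in the dimmest 46. The scanner's own error was 7.60% of the signal in the brightest 45 and 17.95% in the dimmest 46.

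The smallest SD belonged to miR-133b-3p (0.0078), miR-378a-5p (0.02) and miR-133a-3p (0.02). The largest belonged to miR-7005-5p (0.84), with 10.04, 13.1 and 31.9 units, miR-3098-5p (0.67), with 9.62, 3.66 and 10.3 units, and miR-223-3p (0.61). MiR-7005-5p was high in heart 3, miR-3098-5p low in heart 2 and miR-223-3p high in heart 1. Among the 50 brightest miRNAs the largest SD belonged to miR-27a-3p (0.39), miR-144-3p (0.35) and miR-499-5p (0.31). Of the miRNAs detected on 2 control arrays, the brightest by the mean of those arrays was miR-5121, with 3.96 units in heart 2 and 21.1 units in heart 3. MiR-365-3p (3.55 and 10.9 units in hearts 1 and 2) and let-7e-5p came next.

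**Figure D5:**
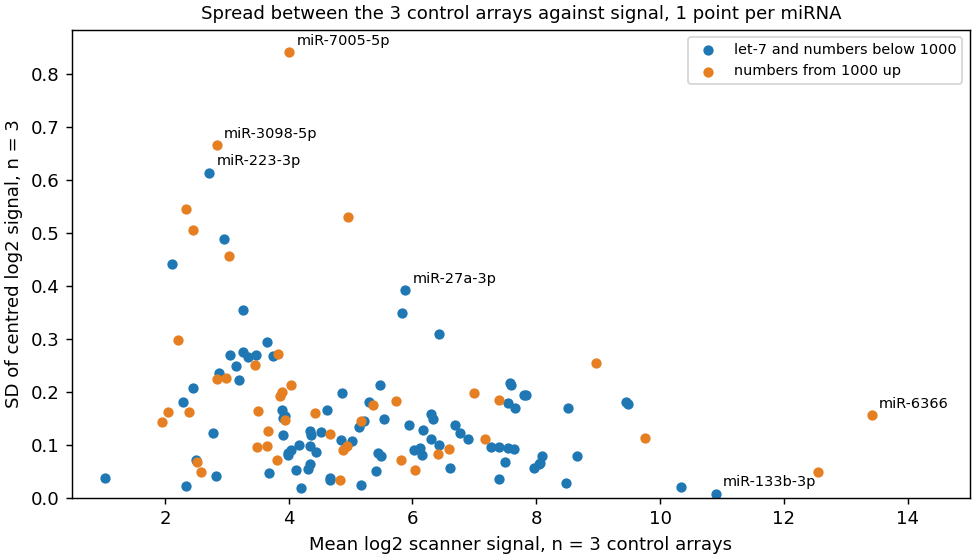
SD of the centred log2 signal over the 3 control hearts against the mean log2 signal, with 1 point per miRNA. The highest point is miR-7005-5p at 0.84, at rank 87 by signal, and the lowest is miR-133b-3p at 0.0078.

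Set beside the other arrays, most of the control miRNAs were detected throughout. Of the 136 miRNAs 128 were detected on all 12 arrays. The other 8 were dim, led by miR-3470a (11.2, 11.6 and 10.1 units) and miR-671-5p (9.91, 8.95 and 7.80 units). Conversely 10 miRNAs detected on all 9 other arrays were not among the 136. Of the 20 brightest control miRNAs, 15 to 17 were among the 20 brightest on each of the other 9 arrays. MiR-6366 and miR-3963 together held 53.3% to 56.5% of the signal on the C arrays, 42.1% to 50.3% on C + P, 43.7% to 52.5% on D and 47.7% to 62.8% on D + P. The muscle list held 12.8% to 13.8% on C, 17.0% to 20.1% on C + P, 16.4% to 20.2% on D and 8.18% to 17.4% on D + P. These ranges are given as values only, and the arrays differ in summed signal as stated above.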

How the data were processed

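MiRNA signals were read from the scanner tables of the 3 control arrays. Per the file headers these hold the total signal intensity per miRNA, its error and a detection call, written by the authors' scanner software without normalization. Undetected miRNAs are deposited as 0.1. The authors also deposited a table of linear intensity for 209 miRNAs, filtered for detection and normalized by cyclic loess, used here as an alternative. Shares from it are percentages of the sum over all 209, more miRNAs than the 171 detected on at least 1 control array. Control features were left out. Shares, means ± SD over the 3 hearts, log2 ratios and Spearman and Pearson coefficients were computed in Python 3.11.15 (pandas 2.3.3, scipy 1.17.1). The computations were tested on simulated data. Seeds (bases 2 to 8) and hairpins came from RefSeq (GRCm38.p6), with clusters joined at 10 kb. No test was run, since groups were not compared. The number of arrays limits the precision. The members and lists were chosen with earlier results of these data known. Named miRNAs were the 20 brightest, those in the fixed lists, the 5 leading families and clusters, the extreme arm ratios, and the extremes of spread and rank. MiR-23a-3p, miR-23b-3p, miR-27a-3p, miR-27b-3p, miR-3470a and miR-671-5p were chosen after their values were seen. The comparisons of let-7c-5p with let-7b-5p and of miR-497a-5p with miR-195a-5p were also chosen in this way. Alternatives were other detection rules, denominators, quantile normalization, a pseudocount of 16, the authors' table and leaving out each heart.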

Additional observations from a re-analysis of the deposited data

How the results depend on the processing

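The results kept their values within the spread of the 3 hearts when the denominator was limited to the 136 miRNAs or widened to undetected ones, and after quantile normalization. The count of 136 was 146 with detection on at least 2 control arrays, 171 on at least 1, 128 on all 12 arrays, and 136 where the signal had to exceed 3 times its error. That last rule is not an independent check, since the same scanner software wrote the error and the detection call. Leaving out a heart gave 137 to 142 miRNAs. In the authors' normalized table the 10 brightest held 72.4%, the muscle list 13.95%, the endothelial list 1.56%, the smooth muscle and pericyte list 0.149%, the red-cell list 1.86%, the white-cell list 0.139% and the miR-29a cluster 2.06%. The muscle list was 109-fold brighter than the white-cell list there, an alternative chosen after seeing the data. In that table the median SD was 0.33 and the lowest rho between arrays 0.701. The authors' values of hearts 1, 2 and 3 had Pearson's r of 0.991, 0.862 and 0.931 with the scanner's log2 signals of the 136 miRNAs, and the cause was not tested. Without miR-6366 and miR-3963, an alternative chosen after seeing the data, the shares are larger by construction. The 10 brightest of the rest held 52.4%, the muscle list 29.3%, the endothelial list 2.85%, the smooth muscle and pericyte list 0.309%, the fibroblast list 0.832%, the red-cell list 3.57%, the white-cell list 0.148%, let-7 7.40% and the miR-29a cluster 3.86%. Adding 16 units before the log2 moved all 6 arm ratios towards 0, to 3.21 for miR-30a and -5.10 for miR-22, with no change of sign. Leaving out each heart in turn gave 75.5% to 76.8% for the 10 brightest, 13.1% to 13.6% for the muscle list and 3.11% to 3.61% for let-7. The median SD was then 0.102 to 0.112, over fewer hearts than the 0.13 of the main result and so not directly comparable with it. With 1 heart left out only 1 array pair remains, so rho (0.984 to 0.989) repeats the pair values above and is no further check. No paired analysis was possible because no groups were compared. All 3 hearts lay on 1 slide, so their spread holds no difference between slides, signals near the lowest detected level have the largest error, and probe affinity is not known.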
